A study of Mus musculus with 46 samples.

Results

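The germline Tudor domain genes considered here are 10 mouse genes: Tdrd1, Tdrd3, Tdrd5, Tdrd6, Tdrd7, Tdrd9, Tdrd12, Tdrkh, Stk31 and Rnf17. They were chosen by symbol, and each was read by 1 probe set of the array, so the 10 genes are 10 of the 19938 genes with a single symbol. Their levels were followed in 23 mouse cell lines of 8 groups, each line measured in 2 cultures on a whole-transcript array (46 arrays). The study asked how pluripotent cells derived from germline stem cells compare with ES and iPS cells.

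Germline stem cells (GS) are spermatogonial stem cells kept in culture, and multipotent germline stem cells (mGS) are ES-like cells that come out of GS cultures. Spontaneous mGS comprised 2 lines with no added gene named in the labels. Each of the 4 induced routes comprised 3 lines and used lentivirus together with p53 knockdown: Dnmt mGS with Dnmt1 knockdown, Dmrt mGS with Dmrt1 knockdown, Sox2 mGS with added Sox2, and Oct4 mGS with added Oct4. GS comprised 3 lines, iPS comprised 3 lines (1, 2 and 5) reprogrammed by retroviruses carrying Oct4, Sox2, Klf4 and c-myc, and all mGS, GS and iPS lines were DBA/2; GFP Tg. ES comprised R1, a hybrid between 129S1/SV-+p+Tyr-cKitlSl-J/+ and 129X1/SvJ, B6-6 (C57BL/6J) and BRC1 ((B6xDBA2)x129). The second R1 culture is named R2 in its description and R1 in its title and source, and was taken as R1. All lines grew on mouse embryonic fibroblast (MEF) feeders, which were thinned on gelatin-coated plates ahead of RNA extraction. The pluripotent lines grew in DMEM with serum and LIF and GS in StemPro-34 with GDNF and basic FGF, so medium and cell type cannot be told apart in any comparison with GS, and strain and cell type cannot be told apart in comparisons with ES. The sources used here do not give whether the lines of a group began from separate cultures, and the p-values measure the spread between lines.

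A Tudor domain is a small fold that holds methylated arginine or lysine. In germ cells, several proteins with such domains bind the methylated arginines of PIWI proteins and gather them, with helicases and nucleases, in granules next to mitochondria and in the chromatoid body, where piRNAs that silence retrotransposons are made. TDRD3, by contrast, is expressed broadly and reads arginine marks on histones and on RNA polymerase II, and it works with the topoisomerase TOP3B.

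Levels are array intensities, given as the mean of the 2 cultures of a line in line order (iPS 1, 2 and 5, and ES R1, B6-6 and BRC1). Group means are geometric, differences are log2 ratios, first-named group over the other, ± standard error, and a gene is said to be higher or lower where limma's adjusted p over all 19938 genes was under 0.05. The background level was 161.1, the 95th percentile of the 1027 olfactory receptor genes. Where a group mean lay under it, the fold is a lower bound, the brighter mean divided by 161.1. Gene positions are those of RefSeq on build GRCm38.p6. Intensities of different genes come from different probes and are not compared with each other.

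The groups carried the markers of their labels. All 7 spermatogonia markers were above background in GS and 3 to 5 of 7 in each group outside GS. Their summed intensity was 32948 to 40296 per line in GS against 1259 to 2973 in the lines outside GS. All 7 pluripotency markers were above background in every group outside GS and 2 of 7 in GS. Spermatid markers summed to 1255 to 1644 over all groups, and testis somatic markers to 1255 to 2445. Array medians were 215.4 to 242.5, apart from culture 1 of Oct4 mGS 1 at 264.8. Some lines were nearer to another group than to their own. Over all genes the lines labelled Dnmt mGS 2 and Dmrt mGS 1 correlated with each other at 0.9937, about as closely as the cultures of each (0.9942), against 0.9865 for Dnmt mGS 2 and 0.9506 for Dmrt mGS 1 with their nearest line of the same group. Dnmt mGS 3 and Oct4 mGS 3 were nearest to Dmrt mGS 3 (0.9861 and 0.9786, against 0.9684 and 0.9626 within their groups), and ES R1 was nearest to iPS 5 (0.9853, against 0.9715 within ES). Dnmt1 was 620, 2752 and 647 in Dnmt mGS lines 1, 2 and 3, against 1934 to 2772 in the 9 lines of the other routes, so the line labelled Dnmt mGS 2 showed no lowering of its target. Dmrt1 was 191, 413 and 554 in Dmrt mGS against 151 to 665 in the other lines outside GS and 4220, 3400 and 3379 in GS. Results that rest on the lines labelled Dnmt mGS 2 and Dmrt mGS 1 are given with and without them, an alternative added after the data were seen.

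Across the 10 genes, 7 formed a GS set: Tdrd1, Tdrd5, Tdrd7, Tdrd9, Tdrkh, Stk31 and Rnf17 were higher in GS than in iPS, none was lower, and Tdrd3, Tdrd6 and Tdrd12 were not called. Of all genes, 54% were called between GS and iPS, and 35.5% were higher in GS. The median difference of the 10 genes was 2.99 on the log2 scale against 0.17 over all genes. Between GS and ES, 8 were higher and 2 were not called, with a median of 2.88 against 0.09, where 43.2% of all genes were called and 26% were higher in GS. The eighth gene was Tdrd6, which stayed below background in both groups. The comparisons of GS with iPS and with ES share the 3 GS lines. RNA was taken from whole cultures, so fewer cells of a type and less RNA per cell cannot be told apart.

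**Figure D1:**
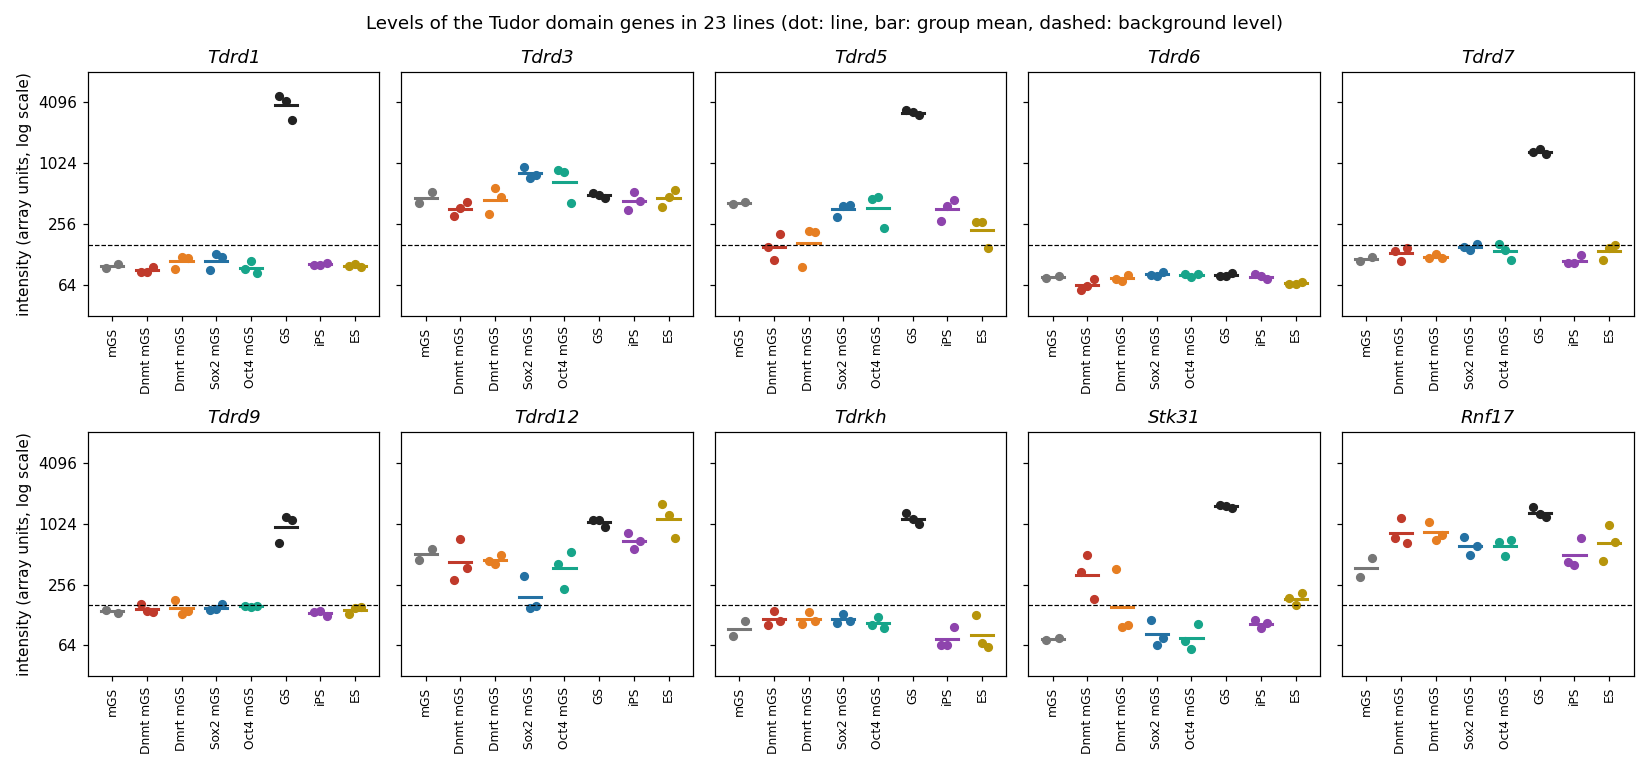
Intensity of each of the 10 genes (y axis, array units, log scale) in the 23 lines, by group (x axis). Dots are lines, bars are geometric group means and the dashed line is the background level of 161.1; the 3 GS lines lie above all other lines for 7 of the 10 genes, while Tdrd3, Tdrd6 and Tdrd12 have no such gap.

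Promoter windows from RefSeq (build GRCm38.p6, 250 bases before to 50 after the annotated start) were available for 8 of the 10 genes. The windows of Stk31, Tdrd1, Tdrd5, Tdrd12 and Tdrd3 are shown because these genes span the patterns seen. Stk31 and Tdrd1 are 2 GS genes at background in most or all other lines. Tdrd5 is a GS gene with a second level in pluripotent lines. Tdrd12 was not called between GS and ES or iPS and was above background in 18 of the 20 lines outside GS. Tdrd3 was present in every line. Capitals mark CpG dinucleotides, the substrate of the maintenance methyltransferase encoded by Dnmt1. Sequences run 5′ to 3′ along the gene.
Stk31, chr6:49395289-49395588, plus strand: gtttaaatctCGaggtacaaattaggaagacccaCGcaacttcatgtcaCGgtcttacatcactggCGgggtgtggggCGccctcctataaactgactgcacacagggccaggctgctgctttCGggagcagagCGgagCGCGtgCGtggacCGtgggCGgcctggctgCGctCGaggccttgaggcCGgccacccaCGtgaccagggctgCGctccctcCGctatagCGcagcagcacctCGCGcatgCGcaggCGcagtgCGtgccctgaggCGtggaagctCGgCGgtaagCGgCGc
Tdrd1, chr19:56825959-56826258, plus strand: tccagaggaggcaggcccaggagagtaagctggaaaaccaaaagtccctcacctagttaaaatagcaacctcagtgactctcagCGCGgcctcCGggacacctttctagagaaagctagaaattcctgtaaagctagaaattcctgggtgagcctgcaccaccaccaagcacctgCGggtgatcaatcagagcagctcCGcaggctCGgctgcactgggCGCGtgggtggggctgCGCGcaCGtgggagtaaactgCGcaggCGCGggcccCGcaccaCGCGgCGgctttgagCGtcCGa
Tdrd5, chr1:156303299-156303598, minus strand: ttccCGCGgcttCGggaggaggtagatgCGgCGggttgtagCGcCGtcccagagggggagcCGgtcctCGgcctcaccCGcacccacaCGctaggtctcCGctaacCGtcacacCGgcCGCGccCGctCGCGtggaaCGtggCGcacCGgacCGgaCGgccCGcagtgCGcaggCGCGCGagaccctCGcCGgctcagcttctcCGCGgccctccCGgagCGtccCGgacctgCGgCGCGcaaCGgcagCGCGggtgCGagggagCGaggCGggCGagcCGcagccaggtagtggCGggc
Tdrd12, chr7:35537666-35537965, minus strand: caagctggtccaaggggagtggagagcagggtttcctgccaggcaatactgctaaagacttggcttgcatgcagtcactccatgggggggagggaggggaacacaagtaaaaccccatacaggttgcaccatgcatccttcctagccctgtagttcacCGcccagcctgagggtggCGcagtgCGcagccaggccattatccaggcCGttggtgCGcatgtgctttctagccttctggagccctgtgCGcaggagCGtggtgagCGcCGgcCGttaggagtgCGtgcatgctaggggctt
Tdrd3, chr14:87416333-87416632, plus strand: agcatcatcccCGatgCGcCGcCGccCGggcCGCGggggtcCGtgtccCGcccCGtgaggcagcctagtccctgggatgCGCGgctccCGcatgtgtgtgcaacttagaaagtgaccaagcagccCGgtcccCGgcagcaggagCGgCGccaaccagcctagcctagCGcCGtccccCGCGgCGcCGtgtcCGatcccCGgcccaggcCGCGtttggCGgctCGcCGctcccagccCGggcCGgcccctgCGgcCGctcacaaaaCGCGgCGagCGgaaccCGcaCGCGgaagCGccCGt

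The Stk31 window held 29 CpGs, more than 87.1% of the 32851 windows of the table, whose median was 7. The Tdrd1 window held 20 (more than 73.5%), the Tdrd5 window 48 (98.8%), the Tdrd12 window 11 (58.6%) and the Tdrd3 window 43 (97.4%). The windows were searched on both strands for CACGTG (an E-box), GCGGGAA (E2F), AACGG (MYB) and the NRF1 motif, GCGCA and GCGC with any 1 base between them. Of all windows, 7.15% hold the E-box, 4.6% the E2F motif, 17.4% the MYB motif and 4.6% the NRF1 motif. None of these motifs contains another. Stk31 held CACGTG at position −55 from the start and 2 NRF1 matches that overlap each other, at −8 and −2, and Tdrd1 held CACGTG at −11 and an NRF1 match at 6. Tdrd5 held an E2F match at −250, an NRF1 match at −83 and an AACGG at −9, Tdrd12 held AACGG at −45 and 21, and Tdrd3 held none of the 4. These are matches of letters within 300 bases. Stk31, Tdrd1 and Tdrd12 have more than 1 annotated start, and the first entry of each is shown. The third Tdrd1 entry held 3 CpGs and none of the 4 motifs. The other GS genes with a window differed from Stk31 and Tdrd1. Tdrkh held 25 CpGs and none of the 4 motifs, and Tdrd9 held 10 CpGs, CACGTG at −165 and −95 and AACGG at −7. The 3 Tdrd7 entries held 4, 32 and 32 CpGs, with no motif in the first, an NRF1 match at −150 in the second and AACGG at −5 in the third.

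Tdrd1 encodes a scaffold of the intermitochondrial cement of germ cells that binds methylated PIWI proteins, and it lies on chromosome 19 from 56826171 to 56870012 (probe set 10464171). For Tdrd1 the spontaneous mGS lines read 94.4 and 104, the Dnmt mGS lines 86.3, 86.8 and 98, the Dmrt mGS lines 93.6, 121 and 118, the Sox2 mGS lines 90.6, 129 and 121 and the Oct4 mGS lines 92.2, 112 and 84.5, against 4744, 4245 and 2773 in the GS lines. It read 102, 101 and 106 in iPS and 98.7, 104 and 97.9 in ES. All 20 lines outside GS were below background. Tdrd1 was at least 23.7-fold higher in GS than in iPS (5.22 ± 0.17, adjusted p = 5.2e-14) and than in ES (5.25 ± 0.17). Against GS it was lower in mGS (−5.27 ± 0.19) and in the routes Dnmt mGS (−5.41 ± 0.17), Dmrt mGS (−5.12 ± 0.17), Sox2 mGS (−5.09 ± 0.17) and Oct4 mGS (−5.32 ± 0.17).

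Tdrkh encodes a mitochondrial membrane protein that brings PIWI proteins to the trimming of piRNA 3′ ends, and it lies on chromosome 3 from 94413243 to 94434854 (probe set 10494043). For Tdrkh the spontaneous mGS lines read 79.9 and 111, the Dnmt mGS lines 101, 139 and 111, the Dmrt mGS lines 105, 136 and 112, the Sox2 mGS lines 106, 132 and 112 and the Oct4 mGS lines 103, 122 and 95, against 1304, 1149 and 1005 in the GS lines. It read 65.2, 64.6 and 97.8 in iPS and 128, 68.4 and 61.8 in ES. Only the GS lines were above background. Tdrkh was at least 7.11-fold higher in GS than in iPS (3.95 ± 0.23, adjusted p = 2.5e-10) and than in ES (3.81 ± 0.23), and it was lower than in GS in all 5 mGS types, by −3.60 ± 0.26 in mGS and −3.43 to −3.29 in the induced routes.

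Tdrd7 and Tdrd9 followed the same outline. Tdrd7 encodes a LOTUS and Tudor domain protein of the chromatoid body (chromosome 4, 45965027 to 46034766, probe set 10504672). For Tdrd7 the spontaneous mGS lines read 110 and 123, the Dnmt mGS lines 138, 111 and 150, the Dmrt mGS lines 119, 129 and 118, the Sox2 mGS lines 154, 143 and 164 and the Oct4 mGS lines 163, 143 and 113, against 1311, 1427 and 1279 in the GS lines. It read 106, 105 and 127 in iPS and 113, 149 and 160 in ES. Outside GS, only Sox2 mGS 3 and Oct4 mGS 1 passed background, and by a few units. Tdrd7 was at least 8.3-fold higher in GS than in iPS (3.58 ± 0.14, adjusted p = 1.3e-12) and than in ES (3.26 ± 0.14). Differences of the mGS types from GS ran from −3.53 ± 0.16 in mGS to −3.12 ± 0.14 in Sox2 mGS.

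Tdrd9 encodes a helicase with a Tudor domain that acts with MIWI2 (chromosome 12, 111971488 to 112068854, probe set 10398759). For Tdrd9 the spontaneous mGS lines read 144 and 135, the Dnmt mGS lines 166, 140 and 138, the Dmrt mGS lines 182, 131 and 140, the Sox2 mGS lines 144, 147 and 164 and the Oct4 mGS lines 156, 155 and 156, against 661, 1178 and 1099 in the GS lines. It read 137, 139 and 125 in iPS and 130, 151 and 153 in ES. GS 1 was the lowest of the GS lines but stood above every other line. Tdrd9 was at least 5.89-fold higher in GS than in iPS (2.83 ± 0.16, adjusted p = 2.2e-10) and than in ES (2.72 ± 0.16), and lower than in GS in the 5 mGS types by −2.77 to −2.61.

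Tdrd5 kept a second, lower level in the pluripotent lines. Its protein has LOTUS and Tudor domains and is needed for the chromatoid body, and the gene lies on chromosome 1 from 156255296 to 156304304 (probe set 10359118). For Tdrd5 the spontaneous mGS lines read 410 and 421, the Dnmt mGS lines 153, 113 and 206, the Dmrt mGS lines 96.8, 221 and 216, the Sox2 mGS lines 305, 389 and 394 and the Oct4 mGS lines 460, 481 and 236, against 3411, 3260 and 3055 in the GS lines. It read 278, 392 and 442 in iPS and 272, 271 and 150 in ES. Of the 20 lines outside GS, 16 were above background, and the 4 below it were Dnmt mGS 1, Dnmt mGS 2, Dmrt mGS 1 and ES BRC1. Tdrd5 was higher in GS than in iPS by 3.15 ± 0.33 (3239 against 364, adjusted p = 3.4e-07) and than in ES by 3.86 ± 0.33 (3239 against 222). Against GS it was lower by −2.96 ± 0.37 in mGS, −3.17 ± 0.33 for Sox2 mGS and −3.11 ± 0.33 for Oct4 mGS, and by −4.41 ± 0.33 in Dnmt mGS and −4.28 ± 0.33 in Dmrt mGS. Without the lines labelled Dnmt mGS 2 and Dmrt mGS 1 the values for Dnmt mGS and Dmrt mGS were −4.19 and −3.89.

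Stk31, also known as Tdrd8, encodes a protein with a Tudor and a kinase-like domain that is found in spermatogonia and spermatids, and it lies on chromosome 6 from 49395506 to 49469506 (probe set 10538222). For Stk31 the spontaneous mGS lines read 72.5 and 76.3, the Dnmt mGS lines 337, 506 and 185, the Dmrt mGS lines 362, 97.2 and 102, the Sox2 mGS lines 114, 65.3 and 75.2 and the Oct4 mGS lines 71.7, 59.7 and 104, against 1565, 1543 and 1464 in the GS lines. It read 114, 94.7 and 107 in iPS and 190, 161 and 211 in ES. The 6 lines above background outside GS were the 3 Dnmt mGS lines, the line labelled Dmrt mGS 1, ES R1 and ES BRC1. Stk31 was higher in GS than in ES by 3.03 ± 0.40 (1524 against 186, adjusted p = 6.2e-06) and at least 9.46-fold higher than in iPS (3.86 ± 0.40). It was lower than in GS in mGS (−4.36 ± 0.45), Dmrt mGS (−3.31 ± 0.40), Sox2 mGS (−4.21 ± 0.40) and Oct4 mGS (−4.32 ± 0.40). Dnmt mGS lay closest to GS, at −2.27 ± 0.40 (316 against 1524, adjusted p = 0.00014).

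Rnf17 encodes a RING finger and Tudor domain protein of a spermatid granule and lies on chromosome 14 from 56402650 to 56525032 (probe set 10415472). For Rnf17 the spontaneous mGS lines read 304 and 466, the Dnmt mGS lines 740, 1164 and 652, the Dmrt mGS lines 1067, 703 and 795, the Sox2 mGS lines 750, 506 and 615 and the Oct4 mGS lines 670, 485 and 704, against 1504, 1265 and 1194 in the GS lines. It read 427, 398 and 743 in iPS and 436, 993 and 681 in ES. Every line was above background, the GS lines were highest, and the line labelled Dnmt mGS 2 came close to GS 3. Rnf17 was higher in GS than in iPS by 1.39 ± 0.30 (1315 against 502, adjusted p = 0.00088) and than in ES by 0.98 ± 0.30 (1315 against 666, adjusted p = 0.013), and the second call was lost without ES R1 (0.68, adjusted p = 0.092). It was lower than in GS in mGS (−1.81 ± 0.34), Sox2 mGS (−1.09 ± 0.30) and Oct4 mGS (−1.10 ± 0.30). It was not called in Dnmt mGS (−0.67 ± 0.30, adjusted p = 0.073) or Dmrt mGS (−0.64 ± 0.30, adjusted p = 0.098). Without the lines labelled Dnmt mGS 2 and Dmrt mGS 1 both were called, at −0.92 (adjusted p = 0.024) and −0.81 (adjusted p = 0.046), and Dnmt mGS was also called without Dnmt mGS 2 alone (−0.92) or ES R1 alone (−0.67, adjusted p = 0.048).

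Tdrd12 encodes a helicase with Tudor domains that acts in secondary piRNA production, and it was first catalogued as an ES cell transcript, Ecat8. It lies on chromosome 7 from 35466941 to 35537784 (probe set 10562468). For Tdrd12 the spontaneous mGS lines read 449 and 578, the Dnmt mGS lines 287, 725 and 375, the Dmrt mGS lines 438, 410 and 502, the Sox2 mGS lines 308, 150 and 158 and the Oct4 mGS lines 411, 230 and 536, against 1118, 1118 and 949 in the GS lines. It read 825, 570 and 693 in iPS and 1599, 1235 and 730 in ES. ES R1 and ES B6-6 were above all GS lines, and only Sox2 mGS 2 and Sox2 mGS 3 were below background. Tdrd12 was not called between GS and ES (−0.09 ± 0.36, adjusted p = 0.85) or between GS and iPS (0.62 ± 0.36, adjusted p = 0.15).

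In every mGS type Tdrd12 was lower than in GS: by −1.06 ± 0.40 in mGS (adjusted p = 0.041), −1.31 ± 0.36 for Dnmt mGS, −1.24 ± 0.36 for Dmrt mGS, −2.45 ± 0.36 for Sox2 mGS (194 against 1059, adjusted p = 2.1e-05) and −1.52 ± 0.36 for Oct4 mGS. The call in spontaneous mGS did not survive leaving out any 1 line of mGS (−0.87 without mGS 1, −1.24 without mGS 2) or of GS (−1.02, −1.02 and −1.13 without GS 1, 2 and 3). The value in Dnmt mGS was −1.69 without Dnmt mGS 2 and Dmrt mGS 1.

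Tdrd3 showed no gap between GS and the other lines. It lies on chromosome 14 from 87416178 to 87545508 (probe set 10416709), and all 23 lines were above background. For Tdrd3 the spontaneous mGS lines read 414 and 528, the Dnmt mGS lines 310, 374 and 421, the Dmrt mGS lines 321, 589 and 478, the Sox2 mGS lines 936, 739 and 790 and the Oct4 mGS lines 877, 846 and 416, against 527, 495 and 470 in the GS lines. It read 352, 528 and 437 in iPS and 383, 472 and 561 in ES. The 3 Sox2 mGS lines, Oct4 mGS 1 and Oct4 mGS 2 were above all 18 other lines. Between GS and iPS the difference was 0.20 ± 0.26 (adjusted p = 0.53), and between GS and ES it was 0.09 ± 0.26 (adjusted p = 0.8).

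Tdrd6, which encodes a multiple Tudor domain protein of the spermatid chromatoid body (chromosome 17, 43615334 to 43631846, probe set 10451033), was below background in all 23 lines, from 57.7 in Dnmt mGS 1 to 85.8 in Sox2 mGS 3. It passed the adjusted p between GS and ES (80.9 against 67.2, 0.27 ± 0.08, adjusted p = 0.015) and between Dnmt mGS and GS (64.9 against 80.9, −0.32 ± 0.08, adjusted p = 0.0047). With both sides of each below background, no fold is given. The call between GS and ES was lost without GS 3 (0.23, adjusted p = 0.067). Both calls were lost with the line as a random block (adjusted p = 0.17 for GS against ES and 0.087 for Dnmt mGS against GS) and with only the groups compared (0.051 and 0.062).

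Tdrd1, Tdrd5, Tdrd7, Tdrd9, Tdrd12, Tdrkh and Stk31 were lower than in GS in all 5 mGS types. Spontaneous mGS had 8 lower and 2 not called, where 43.1% of all genes were called and 26.9% were lower. Dnmt mGS had 8 lower and 2 not called (49.1% called, 30% lower), Dmrt mGS 7 lower and 3 not called (41.6% called, 24.1% lower), and Oct4 mGS 8 lower and 2 not called (42.9% called, 22.6% lower). Sox2 mGS had 8 lower, 1 higher (Tdrd3) and 1 not called, where 44% of all genes were called, 24.6% lower and 19.4% higher. The median difference of the 10 genes from GS was −2.87 in mGS, −2.48 for Dnmt mGS, −2.98 for Dmrt mGS, −2.88 for Sox2 mGS and −2.86 for Oct4 mGS, while the medians over all genes lay between −0.13 and −0.04. These comparisons share the same 3 GS lines. Tdrd3 in Sox2 mGS was higher by 0.72 ± 0.26 (818 against 497, adjusted p = 0.03), a call lost without GS 2 (0.72, adjusted p = 0.069), GS 3 (0.68), Sox2 mGS 1 (0.62) or Sox2 mGS 3 (0.74). In Oct4 mGS Tdrd3 was 0.44 ± 0.26 (adjusted p = 0.18), and it was called without Oct4 mGS 3 (0.79, adjusted p = 0.0085). The mean feeder marker intensity was 1650, 1270 and 694 in Oct4 mGS 1, 2 and 3, where Tdrd3 was 877, 846 and 416. Of lines in other groups with feeder levels between those of Oct4 mGS 1 and 2, Sox2 mGS 2 (1490) read 739 for Tdrd3. Dnmt mGS 3 (1400) and ES BRC1 (1320) read 421 and 561. With the feeder level as a covariate Tdrd3 in Oct4 mGS was 0.03 against GS (adjusted p = 0.94). Whether feeder content accounts for the Tdrd3 level was not tested.

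**Figure D2:**
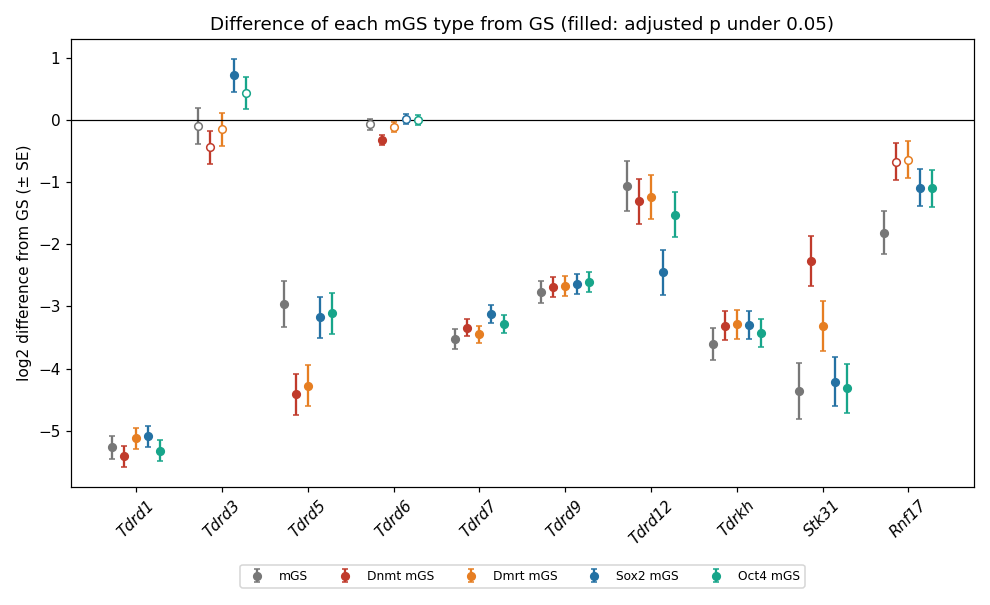
Log2 difference of each mGS type from GS (y axis) for the 10 genes (x axis), with bars of 1 standard error; filled points passed limma's adjusted p of 0.05. Tdrd1 lies lowest at −5.41 to −5.09, and Stk31 in Dnmt mGS (−2.27) lies above Stk31 in the other types (−4.36 to −3.31). Tdrd3 runs from −0.44 in Dnmt mGS to 0.72 in Sox2 mGS, and Tdrd6 from −0.32 in Dnmt mGS to 0.02 in Sox2 mGS.

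None of the 10 genes was called between iPS and ES by limma (0 called, 3 at an unadjusted p under 0.05, 0.627% of all genes called). The same count of 0 was found for spontaneous mGS against iPS (0 at an unadjusted p under 0.05, 0% of all genes called), Dmrt mGS against iPS (3 at an unadjusted p under 0.05, 0.848% called) and Oct4 mGS against iPS (3 at an unadjusted p under 0.05, 13.8% called). Without Oct4 mGS 3, Oct4 mGS differed from iPS in Tdrd3 (0.99), Tdrd7 (0.45) and Tdrd12 (−1.16, adjusted p = 0.045). Oct4 mGS 3 was the lowest line of its route for Tdrd3 and Tdrd5 and the highest for Tdrd12 and Stk31. With Tdrd5 at 364 in iPS and 222 in ES the difference was 0.71 ± 0.33 (adjusted p = 0.37), and with Stk31 at 105 and 186 it was −0.82 ± 0.40 (adjusted p = 0.4). In both genes the lines of the 2 groups did not overlap, without a call. The comparisons with iPS share the 3 iPS lines.

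Among the induced routes, Dnmt mGS and Sox2 mGS differed from the rest in some of the 10 genes, and none was called in Dmrt mGS or Oct4 mGS. Against the equal-weighted mean of the other 3 routes, Dnmt mGS had 1 gene higher and 3 lower (19.2% of all genes called, 8.85% higher and 10.4% lower), Sox2 mGS 1 higher and 1 lower (14.2% called, 5.99% higher and 8.16% lower), Dmrt mGS 0 called (1 at an unadjusted p under 0.05, 0.316%) and Oct4 mGS 0 called (2 at an unadjusted p under 0.05, 1.06%). Without Oct4 mGS 3, Oct4 mGS had 2 called, Tdrd3 at 0.75 and Tdrd5 at 1.17.

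Stk31 was the gene that was higher in Dnmt mGS, at 316 against 98.8 in the other routes, at least 1.96-fold (1.68 ± 0.33, adjusted p = 0.0044). All 3 Dnmt mGS lines were above 8 of the 9 lines of the other routes, and the line labelled Dmrt mGS 1, at 362, lay among them. Stk31 did not follow Dnmt1 line by line. Dnmt mGS 2, with Stk31 at 506, had Dnmt1 at 2752, and Dmrt mGS 1 had Dnmt1 at 2772. With Dnmt1 at 620 and 647, Dnmt mGS 1 and 3 read 337 and 185 for Stk31, the latter within the ES range of 161 to 211. Whether Stk31 depends on Dnmt1 was not tested. The Stk31 call against the other routes held without any 1 line (1.34 without Dnmt mGS 2 to 2.06 without Dnmt mGS 3), without both Dnmt mGS 2 and Dmrt mGS 1 (1.55, adjusted p = 0.00072) and with the feeder marker level as a covariate (1.32, adjusted p = 0.012). Against iPS it was at least 1.96-fold higher in Dnmt mGS (1.59 ± 0.40, 316 against 105, adjusted p = 0.025), 1 of 2 genes called, 1 in each direction, where 6.87% of all genes were called, 4.18% higher and 2.68% lower. That call was lost without iPS 1 (1.65, adjusted p = 0.064), iPS 2 (1.51), iPS 5 (1.60), Dnmt mGS 1 (1.54) or Dnmt mGS 2 (1.25), with only the groups compared (adjusted p = 0.057) and with the clone number as a replicate block (1.71, adjusted p = 0.066), and it was 1.25 with an adjusted p of 0.0095 without both Dnmt mGS 2 and Dmrt mGS 1.

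The genes lower in Dnmt mGS than in the other routes were Tdrd3 (365 against 628, −0.78 ± 0.21, adjusted p = 0.019), Tdrd5 (153 against 282, at least 1.75-fold, −0.89 ± 0.27, adjusted p = 0.03) and Tdrd6 (both below background, −0.29 ± 0.07, adjusted p = 0.011). Their lines overlapped with those of the other routes. Each call was lost without Dnmt mGS 1 (−0.66, −0.89 and −0.21) or Dnmt mGS 2 (−0.80, −0.67 and −0.28), and that of Tdrd5 also without Dmrt mGS 3 (−0.82) or Oct4 mGS 2 (−0.83). Against iPS, Tdrd5 was lower in Dnmt mGS (at least 2.26-fold, −1.25 ± 0.33, adjusted p = 0.03), a call lost without iPS 2 (−1.20), iPS 5 (−1.11), Dnmt mGS 1 (−1.25) or Dnmt mGS 2 (−1.04), with only the groups compared (adjusted p = 0.053) and with the clone number as a replicate block (−1.13, adjusted p = 0.11). Without both Dnmt mGS 2 and Dmrt mGS 1, Tdrd5 in Dnmt mGS was −0.80 against the other routes (adjusted p = 0.046) and −1.04 against iPS (adjusted p = 0.047), and Tdrd3 and Tdrd6 were −0.88 (adjusted p = 0.022) and −0.28 (adjusted p = 0.041) against the other routes. With the feeder marker level as a covariate, Tdrd3 and Tdrd5 against the other routes were −0.53 (adjusted p = 0.06) and −0.64 (adjusted p = 0.1).

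In Sox2 mGS, Tdrd12 was lower and Tdrd3 higher than in the other routes. Tdrd12 was 194 against 414 (−1.09 ± 0.29, adjusted p = 0.021) and, against iPS, 194 against 688 (−1.83 ± 0.36, adjusted p = 0.0023). Sox2 mGS 2 and Sox2 mGS 3, at 150 and 158, were the lowest of the 23 lines, and Sox2 mGS 1, at 308, overlapped with Dnmt mGS and Oct4 mGS. Tdrd3 was 818 against 480 (0.77 ± 0.21, adjusted p = 0.023) and, against iPS, 818 against 433 (0.92 ± 0.26, adjusted p = 0.017). Against iPS, Sox2 mGS thus had 2 genes higher, Tdrd3 and Tdrd7, and 1 lower, Tdrd12, where 23.6% of all genes were called, 14.4% higher and 9.22% lower. Tdrd7 was below background in both (153 against 112, 0.45 ± 0.14, adjusted p = 0.031) and was not called without iPS 1 (0.41), iPS 2 (0.41), Sox2 mGS 1 (0.45) or Sox2 mGS 3 (0.41).

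As a group, Sox2 mGS had the highest feeder marker level, so feeder level and route cannot be fully told apart in the covariate fit. In Sox2 mGS 1, 2 and 3 the mean feeder marker intensity was 1980, 1490 and 2140. Tdrd3 was 936, 739 and 790 in these lines and Tdrd12 was 308, 150 and 158. Of 14 markers of fibroblasts, 13 were measured and all 13 were above background in Sox2 mGS, against 11 to 13 in each of the other groups, with a summed intensity of 24410 to 34537 per line, against 4369 to 14964 for spontaneous mGS, 3877 to 22138 for Dnmt mGS, 4426 to 16491 for Dmrt mGS, 11400 to 26711 for Oct4 mGS, 3713 to 14281 in GS, 4084 to 5786 in iPS and 5432 to 20986 in ES. With that level as a covariate, Tdrd3 in Sox2 mGS was 0.43 against the other routes (adjusted p = 0.2), 0.28 against iPS (adjusted p = 0.47) and 0.13 against GS (adjusted p = 0.76). Tdrd12 was −0.88 against the other routes (adjusted p = 0.14) and −1.42 against iPS (adjusted p = 0.059), and −2.08 was its value nearest 0 against GS over all alternatives, each of which kept the call against GS. Tdrd3 against the other routes was not called without Sox2 mGS 1 (0.67), Sox2 mGS 2 (0.84) or Sox2 mGS 3 (0.79), and against iPS without iPS 1 (0.77) or Sox2 mGS 1 (0.82). Tdrd12 against the other routes was not called without Sox2 mGS 2 (−0.91) or Sox2 mGS 3 (−0.94). The count in Sox2 mGS against the other routes was 5 without Dnmt mGS 3, where Tdrd5 (0.84), Stk31 (−1.04) and Tdrd6 (0.20) were added, and 4 without Dmrt mGS 2, where Tdrd5 (0.84) and Stk31 (−1.02) were. It was 3 without Dmrt mGS 3, with Stk31 added (adjusted p = 0.049), and 3 without Oct4 mGS 2, with Tdrd5 added (0.83, adjusted p = 0.049).

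Outside GS, Stk31, Tdrd12 and Tdrd5 varied most among the 10 genes, with SDs of 0.88, 0.87 and 0.69 on the log2 scale over the 20 lines, against a median gap between the cultures of a line of 0.15, 0.09 and 0.07. Tdrd1, Tdrd6, Tdrd7 and Tdrd9 had SDs of 0.13 to 0.22. Stk31 and Tdrd5 ran opposite to each other over the 20 lines (Pearson r = −0.90, Spearman rho = −0.82, and r = −0.82 over 18 lines without Dnmt mGS 2 and Dmrt mGS 1, the lines farthest from the Stk31 median). Tdrd12 followed neither closely (r = 0.38 with Stk31 and −0.23 with Tdrd5). These values describe the lines, which share groups and a single array scaling, and Stk31 was near background in most of them.

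Genes most like each member were sought over all 23 lines by Pearson correlation of log2 levels, where the GS lines carry most of the spread, and 3 were taken per member. Candidates were genes whose mean over all lines, or over the lines outside GS, was above background, and other genes were not compared. A gene dim outside GS, such as Henmt1 (group means of 102 to 124 outside GS and 2945 in GS), passed only through its GS level. Stk31 was most like Dazl, which encodes a germ cell RNA-binding protein (r = 0.987), Gm4779 and Rhox13. Tdrd1 was most like Shcbp1l, Henmt1 (the piRNA 3′ end methyltransferase, r = 0.994) and Foxf1, and Tdrd9 was most like Zbtb16 (the spermatogonial factor PLZF, r = 0.990), Rnf180 and Spata33. Tdrd7 was most like Zic1 (0.992), Gsto2 and Rrad, Tdrkh like Zdhhc23 (0.979), Tsc22d3 and Dgat2, and Tdrd5 like Fdxacb1 (0.971), Ripk4 and Cldn12. Likeness was lower for Tdrd3 (Dok5, 0.930), Tdrd12 (Ccdc117, 0.889) and Rnf17 (Tnrc18, 0.872). Over the 20 lines outside GS, Stk31 was again most like Dazl (r = 0.97, rho = 0.97, and r = 0.95 over 18 lines without Dnmt mGS 2 and Dmrt mGS 1), followed by Susd1 and Slc25a20. Tdrd12 was most like Ash2l (0.915) and Tdrd5 most like Klf6 (0.916).

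For Dazl the spontaneous mGS lines read 361 and 273, the Dnmt mGS lines 1365, 2094 and 617, the Dmrt mGS lines 1403, 392 and 378, the Sox2 mGS lines 516, 210 and 239 and the Oct4 mGS lines 221, 215 and 547, against 16328, 15438 and 15426 in the GS lines. It read 538, 307 and 500 in iPS and 961, 619 and 949 in ES. The lines with the 3 highest Dazl levels outside GS were Dnmt mGS 2, Dmrt mGS 1 and Dnmt mGS 1, which were also the 3 highest in Stk31.

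**Figure D3:**
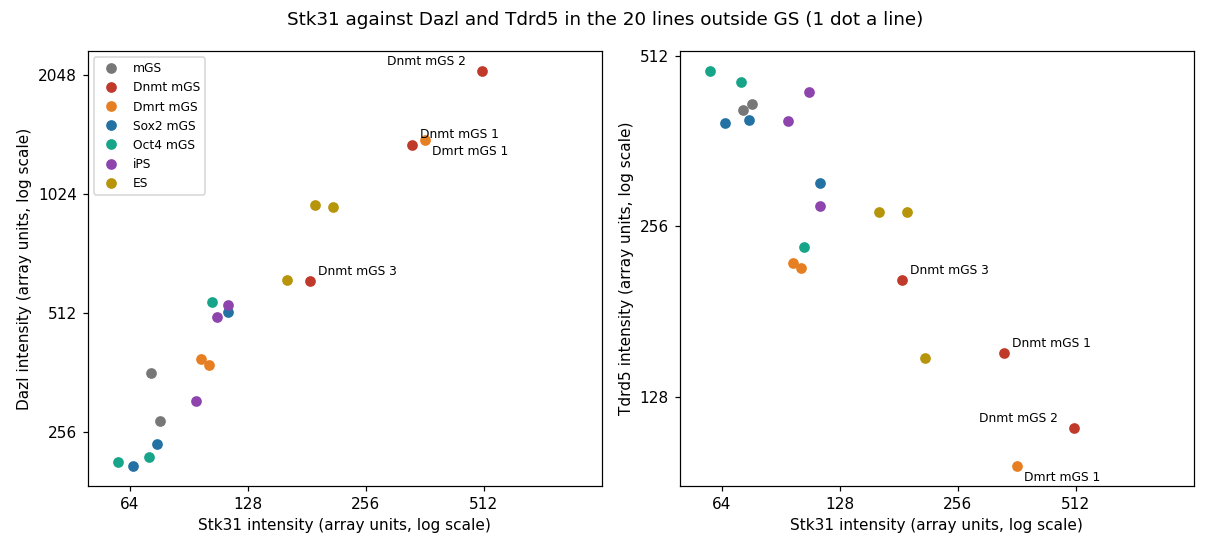
Dazl (left) and Tdrd5 (right) intensity on the y axes against Stk31 intensity on the x axes (array units, log scales) in the 20 lines outside GS, 1 dot a line, coloured by group. Dazl rises with Stk31 (r = 0.97) and Tdrd5 falls with it (r = −0.90), with Dnmt mGS 1, Dnmt mGS 2 and Dmrt mGS 1 at the end of both plots.

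Of 18 other piRNA pathway genes 15 were measured, and 14 of them were higher and 1 lower in GS than in iPS, with a median of 3.28, where 35.5% of all genes were higher and the median was 0.17. Asz1, of the same mitochondria-linked granule as Tdrd1, was higher in GS by at least 25.4-fold (6.07 ± 0.35, 4088 against 61), Henmt1 at least 18.3-fold (4.86 ± 0.13), Mov10l1, the helicase that starts piRNA processing, 4.50 ± 0.31 (4606 against 203) and Ddx4, the germ cell helicase VASA, 4.25 ± 0.27 (4818 against 253). The gene that was lower was Mybl1 (−2.34 ± 0.27, 203 against 1023), which encodes the transcription factor A-MYB of meiotic cells. In Dnmt mGS, 13 were lower than in GS, 1 was higher and 1 was not called. In each of the other 4 mGS types 14 were lower and 1 was higher than in GS. Of all genes, 30% were lower in Dnmt mGS and 22.6% to 26.9% in the other types.

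Part of this list was higher in Dnmt mGS than in the other routes: 5 of 15 were higher and none was lower, where 8.85% of all genes were higher. Gtsf1, a piRNA pathway zinc finger gene, was 770, 318 and 461 in Dnmt mGS against 34 to 212 in the 9 lines of the other routes, at least 3-fold higher (2.62 ± 0.39, adjusted p = 0.0014), with no overlap. Mael, a gene of the same granules, was 4583, 4363 and 4067 against 1005 to 3396 (1.28 ± 0.28, adjusted p = 0.0085), also with no overlap. Asz1 was 340, 268 and 121 against 31.5 to 142 (at least 1.38-fold, 1.89 ± 0.28, adjusted p = 0.0014), Gpat2 663, 739 and 405 against 145 to 705 (1.46 ± 0.38, adjusted p = 0.018), and Piwil2 328, 285 and 459 against 148 to 292 (0.79 ± 0.19, adjusted p = 0.011). In Gtsf1, Mael, Gpat2 and Asz1 the highest line of the other routes was the line labelled Dmrt mGS 1, and in Piwil2 it was Dmrt mGS 3. With lines left out, alternatives added for this list after the data were seen, the same 5 genes were higher without both Dnmt mGS 2 and Dmrt mGS 1, with Gtsf1 at 3.08 ± 0.41 and Asz1 at 1.90 ± 0.29. The count was 2 (Asz1 and Gtsf1) without Dnmt mGS 1, 8 without Dmrt mGS 1 and 8 without Oct4 mGS 3, and 4 to 7 without any other single line. With the feeder marker level as a covariate it was 4, and Gpat2 was not called. Against iPS, 3 of the 15 were higher in Dnmt mGS and none was lower, where 4.18% of all genes were higher and 2.68% lower. Asz1 was lower in Oct4 mGS than in the other routes (−1.27 ± 0.28, adjusted p = 0.045), below background in both, and no gene of the list was called in Dmrt mGS or Sox2 mGS.

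**Figure D4:**
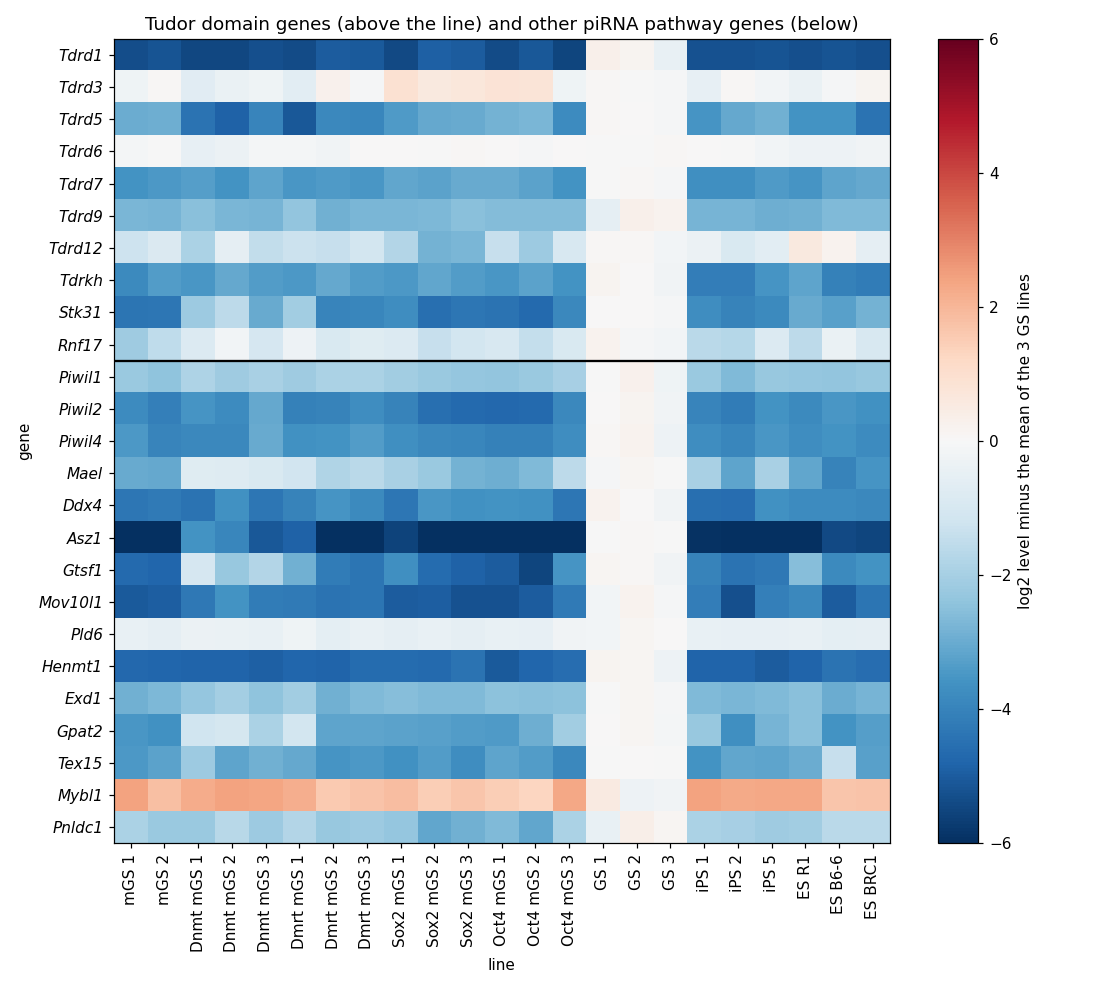
Log2 level of the 10 Tudor domain genes (above the line) and 15 other piRNA pathway genes (below) in each line (x axis), minus the mean of the 3 GS lines; blue is lower and red is higher than GS. Mybl1 is higher than in GS in every other line, and Mael, Gtsf1, Gpat2 and Stk31 are paler in the Dnmt mGS lines and in the line labelled Dmrt mGS 1.

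Between GS and iPS, the share of arginine methylation genes called was near that of all genes. Of 9 genes, 3 were higher and 3 lower in GS than in iPS, where 54% of all genes were called: Prmt7 (0.80 ± 0.25), Coprs (0.60 ± 0.15) and Wdr77 were higher, and Clns1a (762 against 1522), Prmt1 (−0.66 ± 0.16) and Prmt6 were lower. Prmt5, the methyltransferase whose mark on PIWI proteins is bound by Tudor domains, was not called between GS and iPS. In Dnmt mGS against the other routes 4 of the 9 were called, a larger share than the 19.2% of all genes. Prmt7 was higher there (0.73 ± 0.20), and Carm1 (−0.55 ± 0.15), Wdr77 (−0.46 ± 0.10) and Clns1a (−0.30 ± 0.07) were lower. Prmt7 was lower in Sox2 mGS (−0.80 ± 0.20, 666 against 1159).

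Of 20 genes for Tudor domain proteins outside the germline set, 5 were higher, 6 lower and 9 not called in GS against iPS, with a median of −0.11. The share called, 11 of 20, was close to the 54% of all genes. Called genes with the largest fitted differences included Kdm4c, a histone demethylase gene (at least 8.2-fold lower in GS, −3.26 ± 0.15, 138 against 1320), Spin4 (below background in GS and at least 1.32-fold lower there, −1.69 ± 0.16, 65.9 against 213), Phf20l1 (1.20 ± 0.17) and Arid4a (−1.09 ± 0.18). In Dnmt mGS against the other routes Akap1 (0.72 ± 0.23) and Mtf2 (0.47 ± 0.13) were higher. In Sox2 mGS Akap1 (−0.77 ± 0.23), Mtf2 (−0.50 ± 0.13), Kdm4c (−0.41 ± 0.12) and Kdm4a (−0.39 ± 0.11) were lower. Of the 4 genes for TDRD3 partners, Fxr1 was lower in GS than in iPS (−0.47 ± 0.10) and Fxr2 was lower in Sox2 mGS than in the other routes (−0.45 ± 0.14).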

How the data were processed

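RNA of 23 mouse lines (2 cultures each) was hybridised to whole-transcript arrays. The deposited values are normalized linear intensities per probe set, from 16 to 27420. Genome build mm9 is named in the submitters' processing notes, and the scaling and any constant added by the authors are not given in the sources used here, which leaves the size of differences between dim genes uncertain. Of 28856 probe sets, 21789 had 1 symbol in the platform annotation, 1621 had several and 5446 had none there. The probe set with the highest mean was kept per gene (19938 genes, of which 999 had more than 1 probe set and none of the 10 Tudor domain genes did).

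The deposited intensities were put on the log2 scale with no added constant, the cultures of a line were averaged, and limma 3.58.1 (R 4.3.3) was fitted once over the 8 groups with moderated variance and Benjamini-Hochberg adjustment over all genes in each of 17 comparisons. The other routes were the equal-weighted mean of the other 3 induced routes. Precision is limited by 2 or 3 lines a group, with 15 residual degrees of freedom. On simulated data, 98% of 4-fold changes and 88% of 2-fold changes were recovered for Dnmt mGS against the other routes, with 4 and 13 false calls. The simulated lines were independent, with 1 SD per gene for all groups. Measured spreads differed between groups (SD of Stk31 1.08 in Dmrt mGS and 0.05 in GS), and 2 lines were near-identical, so recovery in the measured data can be lower. Each share is an average over 200 changed genes among 19938, and recovery of the Tudor domain genes themselves was not tested. In that comparison their standard errors differed, at 0.27 for Tdrd5, 0.29 for Tdrd12 and 0.33 for Stk31 against 0.07 for Tdrd6. The shares therefore do not give the chance of a call for a single gene.

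The 10 genes, the gene lists and the alternatives were chosen with earlier results of these data known. All 10 genes are named. From the other lists (other piRNA genes, arginine methylation, other Tudor domain genes, TDRD3 partners) up to 4 genes with the largest called difference in GS against iPS are named, and those called in a route against the other routes. Mybl1, Prmt5 and Prmt6 are named outside this rule, as is Sgf29, which was chosen after its values were seen. Likeness names 3 genes for each gene with a line above background, and outside GS for those with an SD over 0.5. Its candidates had a mean above background over all lines or over the lines outside GS. Lines were not treated as paired by clone number or culture number. Of 52 pairs of lines with the same clone number, 24 correlated above 0.1, from −0.645 to 0.795. For culture numbers 72 of 253 pairs did. Pairs with different clone numbers were not set beside these, so the values cannot exclude pairing.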

Additional observations from a re-analysis of the deposited data

Results flagged for a closer look

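Of the 7 results listed here, 6 are differences of a route from the other routes, each tested in limma's fit over all genes. In Dnmt mGS against the other routes these were Stk31 (1.68 ± 0.33), Tdrd3 (−0.78 ± 0.21), Tdrd5 (−0.89 ± 0.27) and Tdrd6 (−0.29 ± 0.07, below background on both sides). In Sox2 mGS against the other routes they were Tdrd3 (0.77 ± 0.21) and Tdrd12 (−1.09 ± 0.29). Lines labelled Dnmt mGS 2 and Dmrt mGS 1, near-identical over all genes, lie on opposite sides of the first contrast, and without both of them Stk31 was 1.55. The feeder marker level was highest in Sox2 mGS, and its part in these results was not tested beyond the covariate values given above.

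The remaining result is 1 array that lay far from the others of its group. In spontaneous mGS, culture 1 of line mGS 1 read 72.4 for Tdrd6 against 78.3 to 79.1 on the other arrays, all below background. Of 80 sets of a gene and a group tested in this way, chance would single out about 1 in 20.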

How the results depend on the processing

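No called difference of the 10 genes turned its direction, while some that were not called changed sign, such as Tdrd12 in GS against ES (−0.41 to 0.16) and Stk31 in Sox2 mGS against iPS (−0.59 to 0.58). Of 2105 values under other settings 2025 kept their call, 28 lost it and 52 gained it, and of 3910 with 1 line left out 3851 kept it, 39 lost it and 20 gained it. Values that were not called in either setting count as kept, and most of the 170 values of a gene in a comparison were not called. Most losses fell on calls in Dnmt mGS and Sox2 mGS against iPS or the other routes. The Stk31 call in Dnmt mGS against iPS was lost in 7 of 35 alternatives. The counts of the 10 genes called changed as follows. Dropping the 40% dimmest genes, which removes Tdrd1, Tdrd6, Tdrd7, Tdrkh and Stk31 from the test, left 3 called in GS against ES (8 before), 3 in GS against iPS (7), 4 in mGS against GS (8), 3 in Dnmt mGS against GS (8), 3 in Dmrt mGS against GS (7), 5 in Sox2 mGS against GS (9), 4 in Oct4 mGS against GS (8), 1 in Dnmt mGS against iPS (2) and 2 in Dnmt mGS against the other routes (4). With 46 arrays and the line as a random block, with or without the culture number as a replicate block, 4 were called in Dnmt mGS, 3 in Dmrt mGS and 3 in Oct4 mGS against iPS. Against the other routes, 1 was called for Dmrt mGS, 4 for Sox2 mGS and 2 for Oct4 mGS. With the clone number as a replicate block, 1 was called in Dmrt mGS and 1 in Oct4 mGS against iPS, and Tdrkh was added in Sox2 mGS (adjusted p = 0.0023). In Dnmt mGS against iPS the count stayed at 2 with different genes, Tdrd6 (0.032) and Tdrkh (0.0061) in place of Stk31 (0.066) and Tdrd5 (0.11). With only the groups compared, 0 were called in Dnmt mGS against iPS, 2 in Dnmt mGS and 0 in Sox2 mGS against the other routes. With the feeder covariate, 1 was called in Dmrt mGS and 0 in Sox2 mGS against iPS, and 2 in Dnmt mGS and 0 in Sox2 mGS against the other routes. The cause of these shifts was not tested.

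With 1 line left out at a time, the counts were 7 to 8 (GS against ES), 7 to 7 (GS against iPS), 7 to 8 (mGS against GS), 8 to 9 (Dnmt mGS against GS), 7 to 7 (Dmrt mGS against GS), 8 to 9 (Sox2 mGS against GS) and 8 to 9 (Oct4 mGS against GS). Against iPS they were 0 to 0 in mGS, 0 to 3 for Dnmt mGS, 0 to 0 for Dmrt mGS, 1 to 4 for Sox2 mGS and 0 to 3 for Oct4 mGS, and 0 to 0 in iPS against ES. Against the other routes they were 1 to 4 for Dnmt mGS, 0 to 0 for Dmrt mGS, 0 to 5 for Sox2 mGS and 0 to 2 for Oct4 mGS. Levels near the background of 161.1 bound a difference only from 1 side.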

Other observations

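One gene for a Tudor domain protein outside the germline set separated the 4 induced routes from every other group, and it was chosen after its values were seen. Sgf29, which encodes a reader of methylated histone H3 in the SAGA complex, read 196 to 481 in the 12 lines of the induced routes, against 752 to 869 in the 11 lines of the other groups, with no overlap. Against iPS it was lower by −1.60 ± 0.23 in Dnmt mGS (adjusted p = 0.0011), −1.27 ± 0.23 in Dmrt mGS (adjusted p = 0.013), −1.01 ± 0.23 in Sox2 mGS (adjusted p = 0.0054) and −1.24 ± 0.23 in Oct4 mGS (adjusted p = 0.0046) by limma. These lines share lentiviral transduction and p53 knockdown, which spontaneous mGS, GS, iPS and ES do not carry according to the labels, so the 2 cannot be told apart.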
